A study of Homo sapiens with 6 samples.

Results

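The serpins secreted by the liver were examined in Hep3B, an established hepatocellular carcinoma cell line of human origin, through every Affymetrix probe set whose platform gene symbol was SERPINA1, SERPINA3, SERPINA5, SERPINA6, SERPINA7, SERPINA10, SERPINC1, SERPIND1, SERPINF2 or SERPING1. These 10 genes were represented by 14 of the 54613 non-control probe sets on the HG-U133 Plus 2 array. Transcripts were measured in 3 arrays of a stable line carrying a tough decoy (TuD, an RNA with exposed microRNA binding sites) against the miR-17 family, called miR-17 TuD, and in 3 arrays of a line carrying the control decoy, called NC TuD. Both lines were made with lentivirus (multiplicity of infection 5, 48 hours, polybrene at 10 µg/mL), put under puromycin at 1 µg/mL and pooled from resistant colonies after 2 weeks. Each group is thus a single pooled line, and nothing in the labels says that its 3 samples came from separate cultures, so p-values cover only the spread among these arrays, possibly all of it technical. A further sample code, with 72HR on all 6 arrays, reads PLUSDOX on every miR-17 TuD array and NODOX on every NC TuD array. The labels do not explain this code, and what it stands for cannot be told apart from the decoy.

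Serpins are protease inhibitors that trap their target: the protease cuts an exposed loop, the serpin changes shape, and the pair is locked in a complex that is cleared from blood. Hepatocytes release the plasma serpins that restrain neutrophil proteases, clotting, fibrinolysis and complement, and some family members have lost inhibition and carry hormones instead. The genes were chosen with the differences between these same 2 groups in view, and SERPINA1 was singled out because its probe sets ran against those of other secreted proteins. Differences of the serpins between the groups are therefore given as a description, and "passed" below means an adjusted p under 0.05 in a limma fit across all tested probe sets, with no independent support implied. All values are the authors' deposited log2 expression values, and each difference on that scale is the miR-17 TuD mean minus the NC TuD mean.

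The decoy was directed at microRNAs that share a seed, the stretch that pairs with target mRNAs. The family as generally defined is shown with its mature sequences from RefSeq (GRCh38.p14) because this shared stretch defines the inhibited group, with the seed, bases 2 to 8, in capitals.
hsa-miR-17-5p: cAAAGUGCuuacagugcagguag
hsa-miR-20a-5p: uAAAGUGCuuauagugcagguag
hsa-miR-20b-5p: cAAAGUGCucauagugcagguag
hsa-miR-93-5p: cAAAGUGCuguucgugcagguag
hsa-miR-106a-5p: aAAAGUGCuuacagugcagguag
hsa-miR-106b-5p: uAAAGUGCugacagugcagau
All 6 sequences held the same seed, AAAGUGC. Mature microRNAs are not measured on this array, and the probe set of MIR17HG, the host transcript of the miR-17 cluster, stood at the lowest value on all 6 arrays, so the action of the decoy on the microRNAs was not checked here.

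Promoter windows of 300 bases, from 250 before to 50 after a gene start, were present in the RefSeq table (GRCh38.p14) for 7 of the 10 genes, 9 windows in all, among 35116 windows of that length. They are shown for genes whose levels are compared below: the 2 windows of SERPINA1, which is known to start from separate promoters in hepatocytes and macrophages, and those of SERPINA7, SERPINA6 and SERPIND1. Capitals mark 5 motifs searched on both strands. These were the HNF1-type half-site GTTAAT, the HNF4-type motif CAAAGTTCA, the TATA box (the letters TATAAA), the C/EBP-type motif TTGCGCAA and the STAT-type motif TTCNNNGAA.
SERPINA1, chr14:94388553-94388852, minus strand: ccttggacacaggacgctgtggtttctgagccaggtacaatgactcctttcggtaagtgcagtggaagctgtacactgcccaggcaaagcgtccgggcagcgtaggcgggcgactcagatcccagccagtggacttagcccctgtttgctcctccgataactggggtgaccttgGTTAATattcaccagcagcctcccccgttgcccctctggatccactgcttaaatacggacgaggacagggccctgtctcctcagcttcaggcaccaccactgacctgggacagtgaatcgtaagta
SERPINA1, chr14:94390586-94390885, minus strand: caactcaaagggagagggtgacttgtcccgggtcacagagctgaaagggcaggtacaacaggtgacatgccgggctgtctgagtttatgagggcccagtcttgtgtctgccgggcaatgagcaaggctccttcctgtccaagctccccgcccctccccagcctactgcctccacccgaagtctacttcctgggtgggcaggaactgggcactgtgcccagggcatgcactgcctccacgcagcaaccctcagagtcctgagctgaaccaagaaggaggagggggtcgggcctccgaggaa
SERPINA7, chrX:106038678-106038977, minus strand: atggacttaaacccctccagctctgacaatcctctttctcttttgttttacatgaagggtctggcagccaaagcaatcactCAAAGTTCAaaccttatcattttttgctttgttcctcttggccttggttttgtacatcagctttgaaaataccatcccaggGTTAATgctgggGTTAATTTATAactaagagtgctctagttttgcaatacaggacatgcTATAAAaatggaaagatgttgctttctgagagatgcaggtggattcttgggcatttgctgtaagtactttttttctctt
SERPINA6, chr14:94323287-94323586, minus strand: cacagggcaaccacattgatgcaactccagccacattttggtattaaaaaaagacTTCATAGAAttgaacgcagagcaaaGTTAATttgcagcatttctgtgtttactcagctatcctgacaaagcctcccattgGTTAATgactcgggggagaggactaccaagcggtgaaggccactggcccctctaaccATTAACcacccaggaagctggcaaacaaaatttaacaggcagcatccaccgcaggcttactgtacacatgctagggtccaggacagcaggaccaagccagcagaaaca
SERPIND1, chr22:20773863-20774162, plus strand: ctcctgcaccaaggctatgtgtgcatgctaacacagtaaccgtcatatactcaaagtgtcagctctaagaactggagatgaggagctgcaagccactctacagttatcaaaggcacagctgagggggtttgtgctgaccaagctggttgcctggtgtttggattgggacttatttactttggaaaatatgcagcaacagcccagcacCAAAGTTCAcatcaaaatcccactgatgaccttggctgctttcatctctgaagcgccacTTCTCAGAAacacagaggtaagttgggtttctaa
The HNF1-type half-site occurred in windows of 4 genes, SERPINA1, SERPINA6, SERPINA7 and SERPINA10, and in 6.88% of all windows. In SERPINA1 it lay in the downstream window alone, with its first base 76 bases before the gene start, and SERPINA6 held 3 copies. The longer CAAAGTTCA occurred in SERPINA7 and SERPIND1 and in 0.296% of all windows. The TATA box occurred in SERPINA7 (11.5% of all windows), where a copy on the other strand overlapped the second HNF1-type half-site. TTCNNNGAA occurred in SERPINA5, SERPINA6 and SERPIND1 (7.66% of all windows), and TTGCGCAA in none of the 9 windows (0.151% of all windows). Of the motifs searched, the upstream SERPINA1 window held none. A match describes these letters only. The gene that was higher in miR-17 TuD arrays (SERPINA1) and genes that were lower there (SERPINA6, SERPINA7 and SERPIND1) both carried matches.

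Hepatocyte markers were present in the cells. All 9 measured genes of a hepatocyte lineage list, among them ALB and AFP, were above the level filter, with the highest probe set of each gene at 8.45 to 16.1. Of 4 endothelial markers 3 stood at the lowest value on every array and PECAM1 reached 2.43, and no blood marker exceeded 3.88 on any array. Of 5 fibroblast markers, COL3A1 and DCN were not above the filter. COL1A1, COL1A2 and LUM were clearly above it, at means of 12.6, 9.13 and 10.6 in the highest probe set of each. The 3 biliary markers were also present, with KRT19 at a mean of 14.2, SOX9 at 12.5 and KRT7 at 9.23 in the highest probe set of each.

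Of the 14 serpin probe sets, 11 from 9 genes lay above the filter and were tested, and 3 stood at the lowest value of 2.12 on all 6 arrays. Among the 11, 1 passed as higher (SERPINA1) and 2 passed as lower (SERPINA7 and SERPING1), where 5.83% of 32768 tested probe sets passed in either direction, 3.35% as higher and 2.48% as lower. Groups that did not overlap were found in 10 of the 11: all 3 miR-17 TuD arrays were below all 3 NC TuD arrays in 7 and above them in 3, where 13.6% and 13.7% of the tested probe sets separated in this way. Since many tested probe sets lie near the floor, the share was also taken over the 18862 with a mean at or above that of the lowest tested serpin probe set: 9.56% passed (5.55% as higher, 4.01% as lower), 19.6% separated as lower and 21.6% as higher. Nothing is read from the serpin counts, because the genes were chosen on this contrast. The median difference was -0.29 over the 11 probe sets and 0.00 over all tested probe sets. In these bulk samples, fewer cells of a type and less RNA per cell cannot be told apart.

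**Figure D1:**
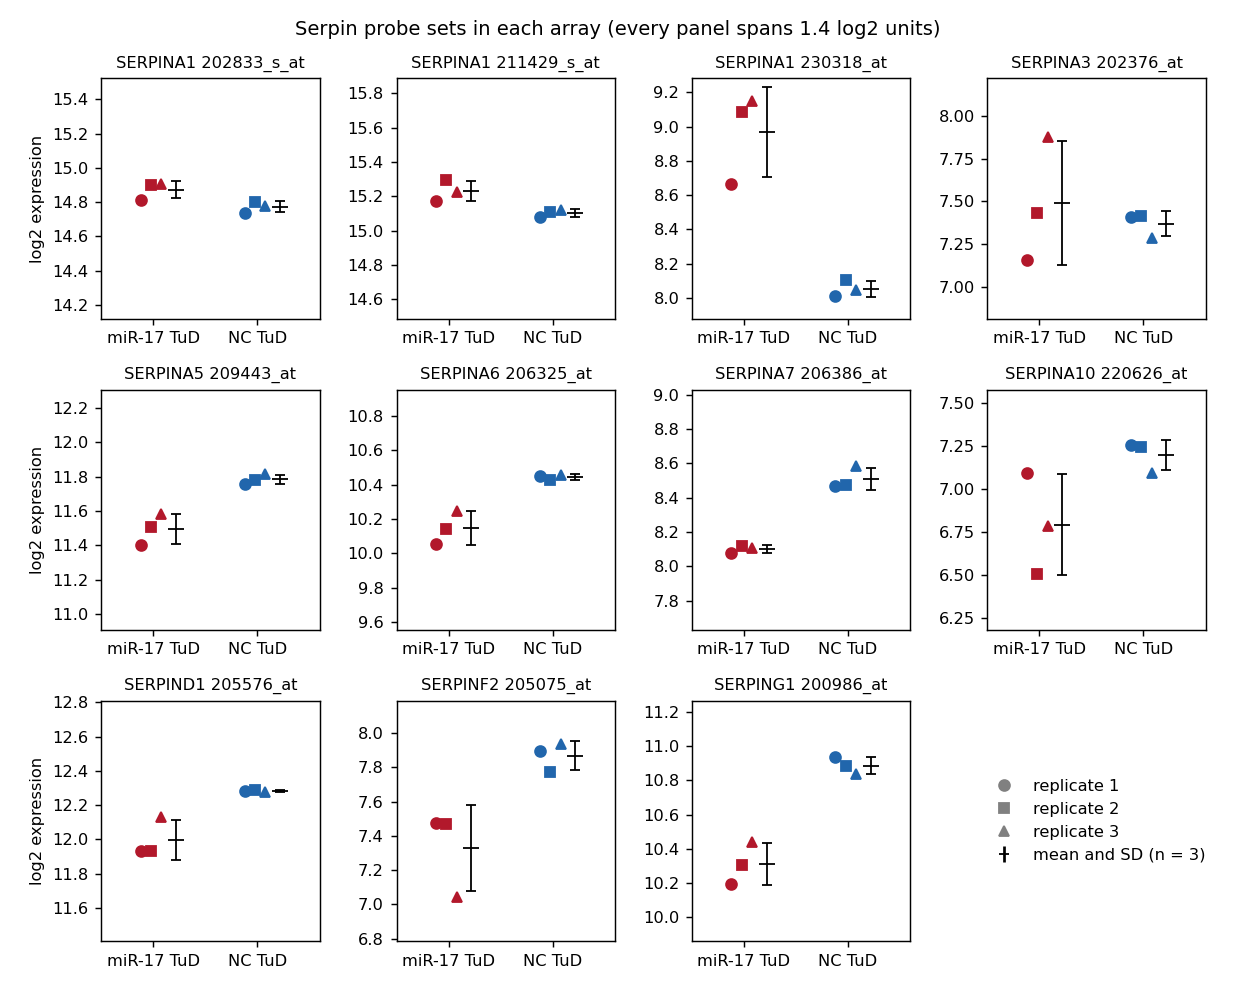
Log2 expression (vertical axes, each spanning 1.4 log2 units) of the 11 tested serpin probe sets in the 3 miR-17 TuD arrays (red, left) and the 3 NC TuD arrays (blue, right); symbols mark replicate numbers, and bars give mean and SD. The 3 SERPINA1 panels have the miR-17 TuD arrays above the NC TuD arrays, SERPINA3 overlaps, and the other 7 panels have the miR-17 TuD arrays below.

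SERPINA1 encodes alpha-1-antitrypsin, the main plasma inhibitor of neutrophil elastase, and 3 of its 4 probe sets were higher in every miR-17 TuD array than in any NC TuD array. Probe set 230318_at stood at 8.66, 9.09 and 9.15 in the miR-17 TuD arrays and at 8.01, 8.10 and 8.05 in the NC TuD arrays. Its levels were apart by more than the spread within either group, and miR-17 TuD replicate 1 was the lowest of its group. It rose 1.88-fold (difference 0.91, SE 0.14; means 8.97 ± 0.26 and 8.05 ± 0.047 in miR-17 TuD and NC TuD arrays, SD, n = 3).

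The other readings of SERPINA1 were small in difference and close to the top of the scale, where the highest value on any array was 16.3. Probe set 211429_s_at stood at 15.17, 15.29 and 15.23 in the miR-17 TuD arrays and at 15.08, 15.11 and 15.12 in the NC TuD arrays. Probe set 202833_s_at stood at 14.81, 14.90 and 14.90 in the miR-17 TuD arrays and at 14.74, 14.80 and 14.78 in the NC TuD arrays. The groups were apart in both, but the gaps were narrow, and neither probe set passed. The differences were 0.13 (SE 0.035, 1.09-fold) for 211429_s_at and 0.10 (SE 0.032, 1.07-fold) for 202833_s_at.

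The fourth SERPINA1 probe set, 211428_at, stood at the lowest value on all 6 arrays, although the platform annotation gives it the same source sequence as 211429_s_at. The 4 probe sets of this gene thus gave a rise of 0.91, differences of 0.13 and 0.10, and a value at the floor. Which part of the transcript each probe set covers was not examined, and probe sets with the suffix s_at can bind transcripts of related genes. With the tested probe sets averaged, SERPINA1 differed by 0.38 (SE 0.066) and passed in a fit over gene means. That average weighs the probe sets equally, whatever their level. SERPINA1 did not pass with 1 probe set per gene, that with the highest mean. Nor did it pass with s_at and x_at probe sets left out, where 230318_at was still tested. The 230318_at call was held in the fit without miR-17 TuD replicate 1 and was lost in the other 5 leave-one-out fits, with a difference of 0.85 without miR-17 TuD replicate 2, 0.82 without miR-17 TuD replicate 3, and 0.89, 0.94 and 0.91 without NC TuD replicates 1, 2 and 3. Omitting the filter on low values also ended this call.

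Probe sets whose centred values over the 6 arrays lay nearest to each SERPINA1 probe set, by root mean square distance and within 3 log2 units of its level, were looked up. For 230318_at they were SEMA3G (distance 0.081), FICD (0.089) and SLC2A8 (0.092), among 15388 candidates. For 202833_s_at they were LASP1 (0.013), FBLIM1 (0.014) and TCF3 (0.016), and for 211429_s_at TPM1 (0.017), TCF3 (0.019) and HDAC1 (0.022). The arrays form 2 groups, so these distances describe 6 values with the group difference in them.

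SERPINA3 encodes alpha-1-antichymotrypsin, an acute phase inhibitor of cathepsin G. Its values were 7.16, 7.43 and 7.87 in the miR-17 TuD arrays and 7.41, 7.42 and 7.29 in the NC TuD arrays. The groups overlapped, with miR-17 TuD arrays holding both the lowest and the highest reading. The difference was 0.12 (SE 0.20), did not pass, and was -0.076 without miR-17 TuD replicate 3.

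SERPINA7 and SERPINA6, the members of the family that carry hormones, were lower in every miR-17 TuD array than in any NC TuD array. SERPINA7 encodes thyroxine-binding globulin and stood at 8.08, 8.12 and 8.11 in the miR-17 TuD arrays and at 8.47, 8.47 and 8.58 in the NC TuD arrays. The miR-17 TuD arrays were tightly grouped. SERPINA7 fell by 0.41 (SE 0.037), a level 1.33-fold lower, and the call was lost when miR-17 TuD replicate 2 was left out (-0.42), and likewise for NC TuD replicates 1 (-0.43) and 2 (-0.43). SERPINA6 encodes corticosteroid-binding globulin and stood at 10.05, 10.14 and 10.25 in the miR-17 TuD arrays and at 10.45, 10.43 and 10.45 in the NC TuD arrays. Its NC TuD arrays were nearly equal and its miR-17 TuD arrays more spread. The difference was -0.30 (SE 0.053) and did not pass. SERPINA6 did pass with quantile normalization, arrays centred on their median, array weights or the 60th percentile filter. It also passed without miR-17 TuD replicate 3 and in the fit over gene means.

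SERPINA5, the protein C inhibitor, acts on proteases of the clotting system. It stood at 11.40, 11.51 and 11.58 in the miR-17 TuD arrays and at 11.76, 11.78 and 11.82 in the NC TuD arrays. The difference was -0.29 (SE 0.051). SERPIND1, which encodes the thrombin inhibitor heparin cofactor II, stood at 11.93, 11.93 and 12.13 in the miR-17 TuD arrays and at 12.28, 12.29 and 12.27 in the NC TuD arrays. Its NC TuD arrays differed by little (SD 0.0062), and miR-17 TuD replicate 3 stood closest to them. The SERPIND1 difference was -0.28 (SE 0.062). Neither gene passed, although the groups of both were apart, and both passed with quantile normalization, median centring, array weights or the 60th percentile filter. SERPIND1 also passed without miR-17 TuD replicate 3 (-0.35). In the fit over gene means SERPINA5 passed and SERPIND1 did not.

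SERPINA10, the protein Z-dependent inhibitor of activated factor X, stood at 7.09, 6.50 and 6.79 in the miR-17 TuD arrays and at 7.26, 7.24 and 7.10 in the NC TuD arrays. The highest miR-17 TuD array and the lowest NC TuD array were almost level, and the difference of -0.41 (SE 0.17) did not pass. SERPINC1, which encodes antithrombin, the chief inhibitor of thrombin in plasma, stood at the lowest value on all 6 arrays in both of its probe sets, 1554491_a_at and 210049_at, so no difference can be given for it.

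SERPINF2 encodes alpha-2-antiplasmin, the fast inhibitor of plasmin in fibrinolysis. It stood at 7.48, 7.47 and 7.04 in the miR-17 TuD arrays and at 7.89, 7.77 and 7.93 in the NC TuD arrays. The groups were apart, and miR-17 TuD replicate 3 lay well below the other arrays of its group. The difference was -0.54 (SE 0.14), a level 1.45-fold lower, and did not pass, except with the 60th percentile filter.

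SERPING1 encodes the C1 inhibitor, which blocks the first proteases of complement and of the contact system. It stood at 10.19, 10.31 and 10.44 in the miR-17 TuD arrays and at 10.93, 10.88 and 10.83 in the NC TuD arrays. Every miR-17 TuD array was below every NC TuD array by more than the spread within a group. SERPING1 fell by 0.57 (SE 0.071), a level 1.49-fold lower. The call was lost when miR-17 TuD replicate 2 was left out (-0.57), and likewise for NC TuD replicates 1 (-0.55), 2 (-0.57) and 3 (-0.60). It was also lost with no filter on low values.

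**Figure D2:**
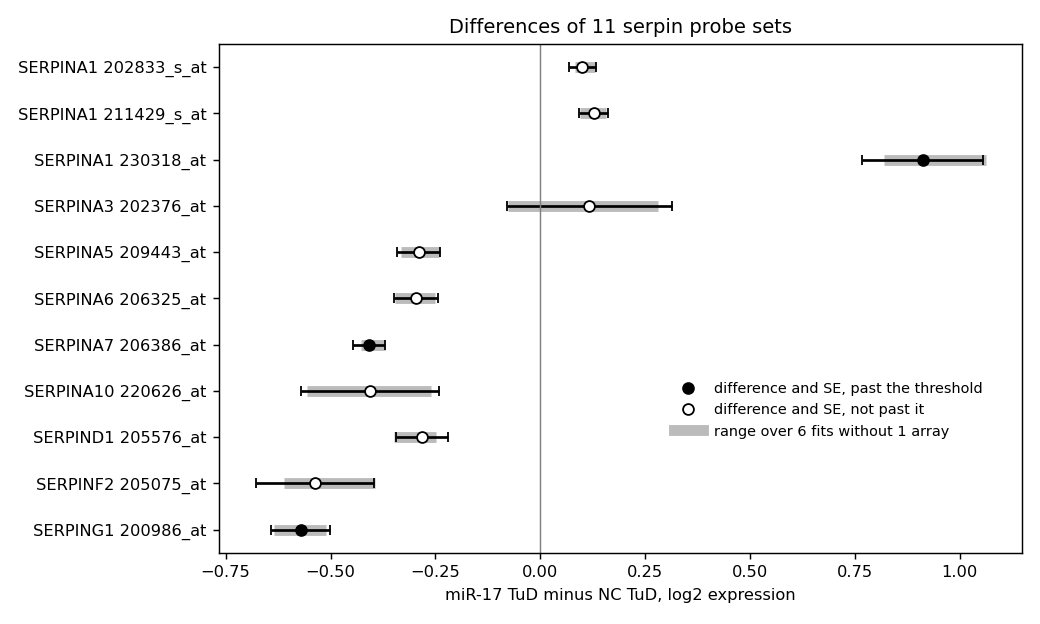
Difference in log2 expression between miR-17 TuD and NC TuD arrays (horizontal axis) for the 11 tested serpin probe sets, with SE bars; filled points passed the threshold, and grey bands give the range over the 6 leave-one-out fits. SERPINA1 230318_at stands at 0.91, and 7 probe sets lie between -0.57 and -0.28; the band of SERPINA3 alone crosses 0.

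The hepatocyte marker list moved with the groups. Of its 19 tested probe sets 16 fell and 0 rose, and each of its 9 genes had a probe set that fell. Over all tested probe sets 2.48% fell, and 4.01% of those at or above the lowest serpin level. For this list, leave-one-out fits are given only for ALB, AHSG and TTR, below. The median difference was -0.47, past the -0.29 of the serpins, and several genes fell further than any serpin: APOA1, the main protein of high-density lipoprotein, by 1.31 and 1.42, AFP, or alpha-fetoprotein, by 1.27, FGB, the fibrinogen beta chain, by 1.24 and 1.26, and APOB, the main protein of low-density lipoprotein, by 0.75 and 0.89. The probe sets of the list summed on the linear scale, where the brightest such as ALB and APOA2 weigh most, gave, as log2 of the sum, 18.09 to 18.10 in the miR-17 TuD arrays and 18.35 to 18.38 in the NC TuD arrays. The fibroblast list gave 13.13 to 13.59 in the miR-17 TuD arrays and 13.06 to 13.10 in the NC TuD arrays. The endothelial list gave 5.36 in both groups, and the blood list 5.90 to 5.97 in the miR-17 TuD arrays and 5.94 to 5.97 in the NC TuD arrays. The biliary list gave 14.82 to 14.83 in the miR-17 TuD arrays and 14.83 to 14.86 in the NC TuD arrays, and 1 of its 5 tested probe sets, from SOX9, fell by 0.15. No fibroblast, endothelial or blood probe set passed. The part of these shifts in the serpin differences was not tested.

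Of the 10 serpins, 5 lie in the serpin A gene cluster on chromosome 14, and their differences ran both ways within it. In gene order the cluster reads SERPINA10, SERPINA6, SERPINA2, SERPINA1, SERPINA11, SERPINA9, SERPINA12, SERPINA4, SERPINA5, SERPINA3 and SERPINA13P. SERPINA6 (-0.30) and SERPINA1 (0.91 in 230318_at) have only the pseudogene SERPINA2 between them in the RefSeq annotation. SERPINA2, SERPINA9, SERPINA12 and SERPINA4 were at or within 0.001 of the lowest value on all 6 arrays. The remaining 5 serpins lie on chromosomes 1, 11, 17, 22 and X.

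**Figure D3:**
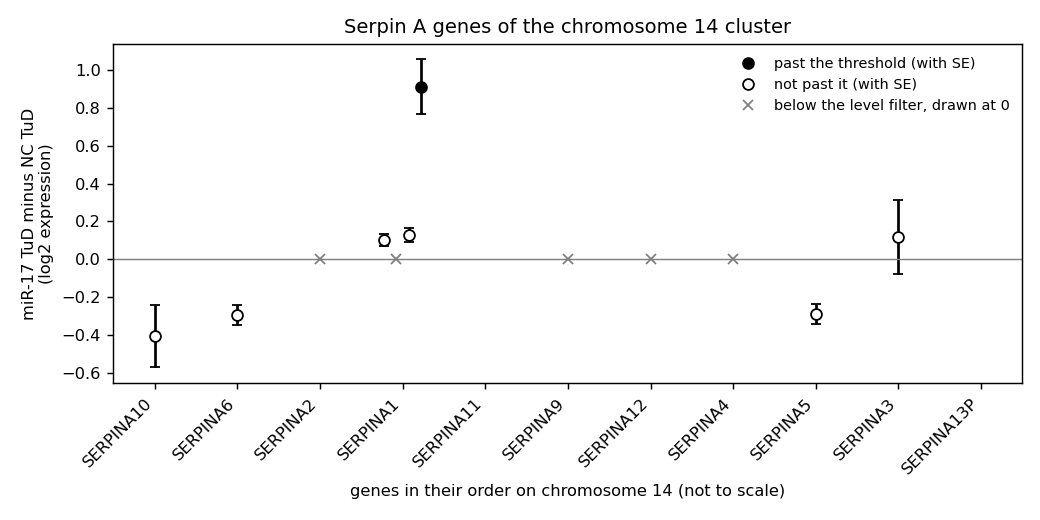
Difference in log2 expression, miR-17 TuD minus NC TuD (vertical axis, SE bars), for probe sets of serpin A genes in their order on chromosome 14 (horizontal axis, not to scale). Filled points passed the threshold, and crosses at 0 are probe sets below the level filter; SERPINA1 lies above 0 between SERPINA6 at -0.30 and SERPINA5 at -0.29.

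Genes related to these serpins were read from 7 lists, chosen with earlier results of these data known. In them 27 of 174 tested probe sets passed, 9 higher and 18 lower, against 5.83% of all tested probe sets. At or above the level of the lowest tested serpin probe set, 25 of 128 passed (19.5%), where 9.56% of all tested probe sets at that level did. By list, the share at that level ran from 6.25% for folding, transport and degradation to 66.7% for ligand carriers. As for the serpins, nothing is read from these counts. Of the 27, 3 passed in 6 of 6 leave-one-out fits, KNG1 217512_at, AHSG 204551_s_at and SPINK1 206239_s_at, and 9 passed in none of them. Leaving out miR-17 TuD replicate 1, 2 or 3 brought the total to 13, 12 or 13, and leaving out any NC TuD array to 4. All adjusted p-values in the next paragraphs are from limma with Benjamini-Hochberg adjustment over all tested probe sets.

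Of 8 measured genes among other serpins, 2 rose and 1 fell, with a median difference of 0.00 over 15 probe sets. SERPINB1, an intracellular inhibitor of neutrophil proteases, rose by 0.17 (SE 0.028, adjusted p = 0.0417) in 1 of its 4 tested probe sets. SERPINE2, or protease nexin 1, rose by 0.11 (SE 0.019, adjusted p = 0.0469) in 1 of 2, and SERPINF1, the secreted pigment epithelium-derived factor, fell by 0.15 (SE 0.025, adjusted p = 0.0445). SERPINB1 and SERPINE2 passed in 0 of 6 leave-one-out fits, and SERPINF1 in 1.

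Among serine proteases that plasma serpins inhibit, and their cofactors, 2 of 15 measured genes fell and none rose, with a median of -0.15 over 22 probe sets. F2, which encodes prothrombin, the precursor of the protease that antithrombin and heparin cofactor II inhibit, stood at 8.28, 8.32 and 8.32 in the miR-17 TuD arrays and at 8.74, 8.66 and 8.81 in the NC TuD arrays. The groups were well apart, and F2 fell by 0.43 (SE 0.044, adjusted p = 0.0192). F7, which encodes the factor that starts clotting with tissue factor, fell by 0.43 (SE 0.028, adjusted p = 0.011) in 207300_s_at and differed by 0.05 in 237414_at. In leave-one-out fits F2 passed in 1 of 6 (adjusted p up to 0.0832) and F7 in 5 (up to 0.0552).

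Non-serpin protease inhibitors of plasma moved both ways, with 3 of 17 measured genes lower, 2 higher and a median of 0.00 over 29 probe sets. KNG1, which encodes kininogen, the kinin precursor and a cysteine protease inhibitor, fell by 0.92 (SE 0.039, adjusted p = 0.00613) and 0.78 (SE 0.064, adjusted p = 0.0142) in its tested probe sets. AHSG, or fetuin-A, fell by 0.45 (SE 0.0099, adjusted p = 0.00436) and 0.34 (SE 0.038, adjusted p = 0.0219). ITIH2, an inter-alpha-trypsin inhibitor heavy chain, was the third to fall (-0.22) and is outside the rule of 4 names per list. SPINK1, a secreted trypsin inhibitor, stood at 7.42, 7.34 and 7.35 in the miR-17 TuD arrays and at 6.22, 6.18 and 6.36 in the NC TuD arrays, and rose 2.17-fold (1.12, SE 0.054, adjusted p = 0.0064). TIMP1, a metalloprotease inhibitor, rose by 0.62 (SE 0.091, adjusted p = 0.0352), and passed in 0 of 6 leave-one-out fits. KNG1 206054_at passed in 2 of those fits, AHSG 210929_s_at in 1 and ITIH2 in 2. AHSG is also in the hepatocyte marker list.

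Plasma carriers of hormones and lipid-soluble ligands fell in 4 of 5 measured genes and 6 of 10 probe sets, with a median of -0.20. Over all tested probe sets, 2.48% fell, and 4.01% of those at or above the lowest serpin level. Of these genes, ALB and TTR are also in the hepatocyte marker list, which moved with the groups, and the part of that shift in this count was not tested. TTR, which carries thyroxine as SERPINA7 does, stood at 12.27, 12.14 and 12.35 in the miR-17 TuD arrays and at 12.75, 12.67 and 12.75 in the NC TuD arrays. It fell by 0.47 (SE 0.062, adjusted p = 0.0296). APOM, a lipoprotein-bound sphingosine-1-phosphate carrier, fell by 0.70 and 0.52 (adjusted p = 0.0362 and 0.0311), RBP4, the retinol carrier, by 0.19 (adjusted p = 0.0457) in 1 of 2, and ALB by 0.21 and 0.10 (adjusted p = 0.0266 and 0.0319) in 2 of its 4 probe sets. In leave-one-out fits, the 2 ALB probe sets passed in 0 and 1, those of APOM in 1 each, RBP4 in 0 and TTR in 2.

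Transcription factors and cytokine signal genes tied to liver serpin expression changed in 3 of 15 measured genes, with a median of -0.04 over 34 probe sets. ONECUT1, a liver-enriched transcription factor, fell by 0.46 (SE 0.045, adjusted p = 0.0176). IL6ST, the signalling subunit of the interleukin-6 receptor, fell by 0.40 (SE 0.06, adjusted p = 0.0376) in 204863_s_at alone. That probe set stood at 4.07 and 4.47 in miR-17 TuD and NC TuD arrays. The IL6ST probe set 212195_at differed by -0.20 (adjusted p = 0.26). In 204864_s_at (-0.11), 212196_at (-0.08) and 211000_s_at (-0.02) the groups overlapped, and none of these passed. JAK1, a kinase of that receptor, rose in 3 of 4 tested probe sets, by 0.22 to 0.29. In leave-one-out fits ONECUT1 passed in 3 of 6, IL6ST in 1, and no JAK1 probe set in more than 1.

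Genes for folding, transport and degradation of secreted serpins changed in 3 of 19 measured genes, and 5.45% of their 55 probe sets passed, next to 5.83% of all. At or above the lowest serpin level 3 of 48 passed (6.25%), where 9.56% of all tested probe sets at that level did. DERL2, of the machinery that exports misfolded proteins from the endoplasmic reticulum, rose by 0.29 (adjusted p = 0.0181) in 1 of 2 tested probe sets. SEL1L, of the same machinery, fell by 0.28 (adjusted p = 0.0344) in 1 of 4 tested probe sets, and MCFD2, a partner of the cargo receptor LMAN1, fell by 0.11 (adjusted p = 0.04) in 212245_at alone of 3, while 212246_at differed by 0.04 (adjusted p = 0.626). Among 4 measured receptors that take up serpin-protease complexes (LRP1, LRP2, SORL1 and VLDLR) and LRPAP1, a chaperone of such receptors listed with them, VLDLR alone passed and rose by 0.46 (SE 0.069, adjusted p = 0.0374). In leave-one-out fits DERL2 passed in 2, VLDLR in 1, and SEL1L and MCFD2 in 0.

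**Figure D4:**
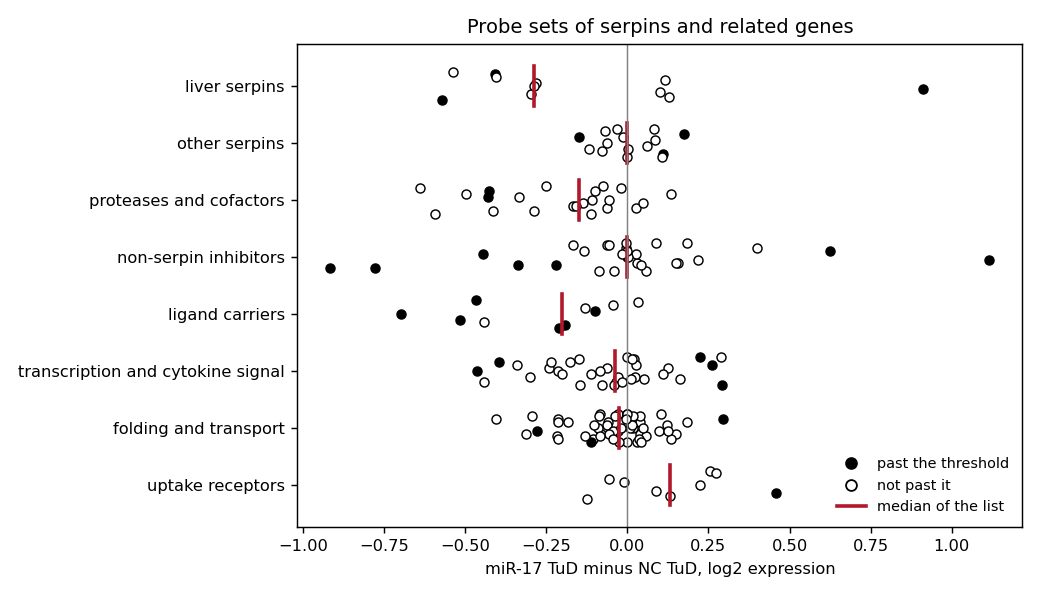
Difference in log2 expression, miR-17 TuD minus NC TuD (horizontal axis), of every tested probe set in the liver serpins and the 7 lists (vertical axis, spread for legibility); filled points passed the threshold and red lines are list medians. Medians run from -0.29 for the liver serpins and -0.20 for the ligand carriers to 0.13 for the uptake receptors.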

How the data were processed

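The authors' deposited values are log2 expression per probe set and array. RMA and GCRMA are listed in the submitters' processing notes, without version or role; the sources used here do not give a genome build. Deposited log2 values share a lowest value of 2.12, held by 34.9% to 35.4% of probe sets on each array, and reach 16.3. Such a floor hides changes of weakly expressed genes, and values were kept as deposited. No detection calls or scan dates were used.

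Symbols came from GEO's platform annotation, updated through Entrez identifiers to RefSeq (GRCh38.p14): of 54613 non-control probe sets, 41091 had 1 symbol, 1801 several and 11721 none, and 41037 matched. Probe sets with a mean over the 6 arrays above the 40th percentile (2.14) were fitted with limma 3.58.1 in R 4.3.3 (lmFit, eBayes, 2-sided), with Benjamini-Hochberg adjustment over all 32768. The prior degrees of freedom were 0.63, so each variance rests mostly on 6 values, and the number of arrays limits the precision. The pipeline was also run on simulated data with independent noise, as a check of the code only. That run does not bear on the calls given here.

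The serpins and the gene lists were chosen with earlier results of these data known. Every serpin probe set is named, and in each list up to 4 genes that passed with the largest difference. Alternatives were quantile normalization, median centring, filters, variance model, array weights, replicate block, probe set choice and leaving out each array. No pair of arrays held the same values; correlations over tested probe sets were 0.9989 to 0.9993 within a group and 0.9977 to 0.9984 between groups.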

Additional observations from a re-analysis of the deposited data

How the results depend on the processing

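Of the 11 serpin probe sets, 3 passed (1 higher, 2 lower). The count was 6 with quantile normalization, 6 with arrays centred on their median and 6 with array weights. With the probe sets of a gene averaged it was 5 of 9. With 1 probe set per gene it was 4 of 9, all lower. With s_at and x_at probe sets left out it was 2 of 9, all lower. The count was 7 with the 60th percentile filter, 1 with no filter on low values and 0 to 4 over leave-one-out fits. It was 0 without miR-17 TuD replicate 2 and without NC TuD replicates 1 or 2, fits of limma in which 8, 7 and 9 of the 11 had an unadjusted p under 0.05. The count over all probe sets, 1910, was 2898 with median centring, 3271 with the 60th percentile filter, 554 with no filter and 145 to 1155 over leave-one-out fits. The count in the 7 lists, 27, was 9 with no filter and 4 to 13 over those fits. The cause was not tested, beyond the number of probe sets adjusted over (54613 with no filter, 21845 with the 60th percentile) and the fewer arrays. The direction of every tested serpin probe set was kept under all alternatives run, except SERPINA3, whose difference ran from -0.076 to 0.28 over leave-one-out fits. Arrays are paired by number only: deviations from the group means correlated at 0.040, 0.10 and 0.11 for replicate numbers 1, 2 and 3, and each array correlated best with its own number, a hint from the data and not the design. With the replicate number as a block, limma called 0 of all probe sets, 0 serpin probe sets and 0 in the lists, with 7488, 8 and 65 at an unadjusted p under 0.05. Signal at the floor limits SERPINC1 and SERPINA1 211428_at, for which no difference could be measured.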

Other observations

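The miR-17 TuD arrays were more spread than the NC TuD arrays in 10 of the 11 tested serpin probe sets, with a median SD over the 11 of 0.11 in miR-17 TuD arrays and 0.047 in NC TuD arrays on the log2 scale (n = 3 each). Over all 18862 tested probe sets at or above the lowest serpin level, 70.2% had the larger SD in the miR-17 TuD arrays, with median SDs of 0.074 and 0.047 in miR-17 TuD and NC TuD arrays. Of the 11 serpin probe sets, miR-17 TuD replicate 1 gave the lowest value of its group in 8 and miR-17 TuD replicate 3 the highest in 7. SERPINA7 was the exception to the wider spread, with an SD of 0.022 in miR-17 TuD arrays and 0.066 in NC TuD arrays.

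The NR3C1 gene, which encodes the receptor for the glucocorticoids that SERPINA6 carries, was lower in all 3 miR-17 TuD arrays than in any NC TuD array in 3 of its 5 tested probe sets, by 0.24 to 0.30, none past the threshold in limma (adjusted p from 0.0792 to 0.151). STAT3, which relays interleukin-6 signals, was higher without overlap in 3 of 4 tested probe sets, by 0.13 to 0.29, also short of the threshold (adjusted p from 0.0753 to 0.201). C1S, which encodes a complement protease that SERPING1 inhibits, was lower without overlap in both probe sets (-0.59 and -0.50, adjusted p = 0.0801 and 0.0843). In C1R, of the same list of proteases as C1S, the groups overlapped in 212067_s_at (-0.16, adjusted p = 0.445 in limma). Over all tested probe sets, 13.6% separated as lower and 13.7% as higher. At or above the lowest serpin level these shares were 19.6% and 21.6%, and both C1S probe sets lay below that level. NR3C1, STAT3 and C1S were named after their values were seen.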
